A study of Mus musculus with 24 samples.

Results

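Cytosolic ribosomal protein genes were followed in mouse ventricle at 2 ages and in 2 genotypes. A gene was a member if its symbol was Rpsa, Rplp0, Rplp1 or Rplp2, or began with Rpl or Rps followed by a digit, with the Rps6k kinases and symbols marked as pseudogenes left out. This rule took 76 of the 18819 genes tested, and 377 probe sets of the array named 1 of them alone. The groups were P30 KO, P30 WT, newborn KO and newborn WT, with 6 hearts and 6 arrays each. KO hearts lacked a pair of executioner caspases, proteases of apoptosis. One was absent from every tissue, whereas the other was removed from a floxed allele by a Cre recombinase under the Nkx2.5 promoter, which acts in cardiac muscle, so that cells in which this promoter was never active kept it. The labels gave the strain of all mice as C57/Bl6, they gave the ages as postnatal day 30 and day 1 to 2, and sex was not given for each sample. Each value was a log2 signal on a whole-transcript Affymetrix array, so a difference of 1 is a doubling. Differences were tested with limma in a single model over the 24 arrays and were called at an adjusted p under 0.05 over all 18819 genes.

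Ribosomes translate mRNA in all cells. A small subunit decodes the message, a large subunit joins the amino acids, and a flexible stalk on the large subunit, formed by Rplp0, Rplp1 and Rplp2, recruits the translation factors. Most of the mRNAs for these proteins start with a run of pyrimidines after a cytosine, the terminal oligopyrimidine or TOP motif, through which mTORC1 controls their translation together. Mammalian genomes hold many processed copies of these genes, and a few copies are genes of their own. Rpl3l, which is expressed in heart and skeletal muscle in place of Rpl3, is the best known of them. The heart passes around birth from growth by cell division to growth by cell enlargement, and the comparisons asked how the mRNAs of the ribosome differed between the ages and between the genotypes. Probes of near-identical copies can share signal, and whole tissue was measured, so that fewer cells of a type and less RNA per cell cannot be told apart.

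Array medians lay between 4.24 and 4.50. The ventricular genes Myl2, Tnnt2 and Actc1 were bright in every group, and the mean of 8 ventricular markers was 12.02 to 12.14 in P30 KO, 11.99 to 12.20 in P30 WT, 12.39 to 12.56 in newborn KO and 12.40 to 12.53 in newborn WT arrays. Yet the difference, P30 minus newborn, was above 0 for 7 of the 8 in KO and 6 in WT hearts. Its median was 0.15 in KO and 0.14 in WT hearts, and its lowest value was -4.63 and -4.34. The mean of 6 atrial markers differed more between arrays, at 7.17 to 10.6 in P30 KO, 6.14 to 10.6 in P30 WT, 9.16 to 10.2 in newborn KO and 8.49 to 10.05 in newborn WT arrays. Its medians were 10.2 in P30 KO, 6.74 in P30 WT, 9.845 in newborn KO and 9.89 in newborn WT arrays. All 6 atrial markers were higher in P30 KO than in P30 WT hearts, with a median difference of 1.91, and 0 passed the test. All 4 smooth muscle and all 7 fibroblast markers were also higher in P30 KO hearts. Their median differences were 1.67 and 0.55, and 0 passed the test. The mean of 5 proliferation markers was 4.37 to 5.52 in P30 KO, 4.88 to 6.02 in P30 WT, 6.10 to 7.74 in newborn KO and 6.87 to 8.11 in newborn WT arrays. The deletions were taken from the labels. The newborn arrays numbered 4 went against their labels when the newborn arrays were scored on the 192 genes called between the genotypes at P30, with the P30 difference scaled to 1. Array 4 of newborn KO had a score of -0.117, where the remaining 5 had 0.0517 to 0.222, and array 4 of newborn WT had a score of 0.102, where the remaining 5 had -0.167 to 6.4e-05. With only the P30 arrays 19 genes were called, and 9 with the atrial marker mean as a covariate. Newborn WT array 4 had the highest smooth muscle and atrial marker means of its group, 8.76 and 10.05. Newborn KO array 4 had the lowest smooth muscle mean of its group, 8.04, with an atrial mean of 9.84 inside the group's range. Whether the score follows genotype or tissue content was not tested.

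Most ribosomal protein mRNAs had less signal at P30 than at birth, by small amounts. In KO hearts 47 of 76 members (61.8%) fell and 3 rose, where 25% of all genes fell and 34% rose. In WT hearts 36 of 76 (47.4%) fell and 2 rose, where 27.9% of all genes fell and 19.2% rose. The median log2 difference of the members was -0.22 in KO and -0.17 in WT hearts, a signal lower by 14.2% and 11.2%, and over all genes it was 0.098 in KO and 0.0024 in WT hearts. The direction was shared, as 70 members had the same sign in the KO and WT arrays, and 63 were below 0 in both. Of the members that fell, 35 did so in both genotypes, 74.5% of the KO list and 97.2% of the WT list. The 2 genotypes share no array in these comparisons, but the calls share a variance per gene over the 24 arrays and are not independent.

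The size of the falls was modest. Only Rpl3 and the copy Rps4l fell by at least 1.5-fold, in KO and in WT hearts alike, and Rpl3l was the only member to rise by that much. Of all genes 9.58% fell and 7.61% rose by at least 1.5-fold in KO hearts, and 12.1% fell and 6.85% rose in WT hearts. At this cut members were thus less often among the falls than genes at large. The 6 P30 arrays all lay below the 6 newborn arrays for 31 members in KO hearts (40.8%, against 15.1% of all genes) and for 24 members in WT hearts (31.6%, against 18.2% of all genes). Members were bright, with 61 of them at a mean log2 signal of at least 9. Among the 1889 genes that bright, 28.3% fell in KO and 32.7% in WT hearts, and among the bright members 70.5% fell in KO and 54.1% in WT hearts. Of the bright genes 40.8% rose in KO and 37.3% in WT hearts, and of the bright members 1 rose in each. Averaged over the 76 members, the log2 signal of single arrays ranged from 9.77 to 9.85 in P30 KO and from 9.91 to 10.06 in newborn KO hearts, without overlap. It ranged from 9.71 to 9.88 in P30 WT and from 9.86 to 9.98 in newborn WT hearts, with a slight overlap. When arrays were centred on their medians, 47 members fell and 3 rose in KO hearts, where 26% of all genes fell and 32.9% rose, and 26 fell and 3 rose in WT hearts, where 24.2% of all genes fell and 26.7% rose. Without the newborn arrays numbered 4, 50 members fell and 2 rose in KO, and 40 fell and 2 rose in WT hearts. All 5 measured proliferation markers were lower and all 7 measured macrophage and leukocyte markers higher at P30 in both genotypes, with macrophage means of 6.74 to 7.29 in P30 KO and 5.73 to 6.47 in newborn KO, and of 6.71 to 7.26 in P30 WT and 5.91 to 6.04 in newborn WT arrays, and the part of these markers in the falls was not tested. The 7 fibroblast markers had a median difference of -0.69 in KO hearts, with 3 called lower and 1 higher, and of -1.54 in WT hearts, with 5 called lower. Their mean was 7.76 to 9.56 in P30 KO and 9.17 to 9.71 in newborn KO, and 7.73 to 9.28 in P30 WT and 9.39 to 9.53 in newborn WT arrays, so that the ages overlapped in KO and not in WT hearts, and their part was not tested either. The 6 atrial markers had a median difference of -0.33 in KO hearts, with 0 called lower and 1 higher. In WT hearts it was -1.87, with 4 called lower and 1 higher, and the part of the atrial markers was not tested.

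**Figure D1:**
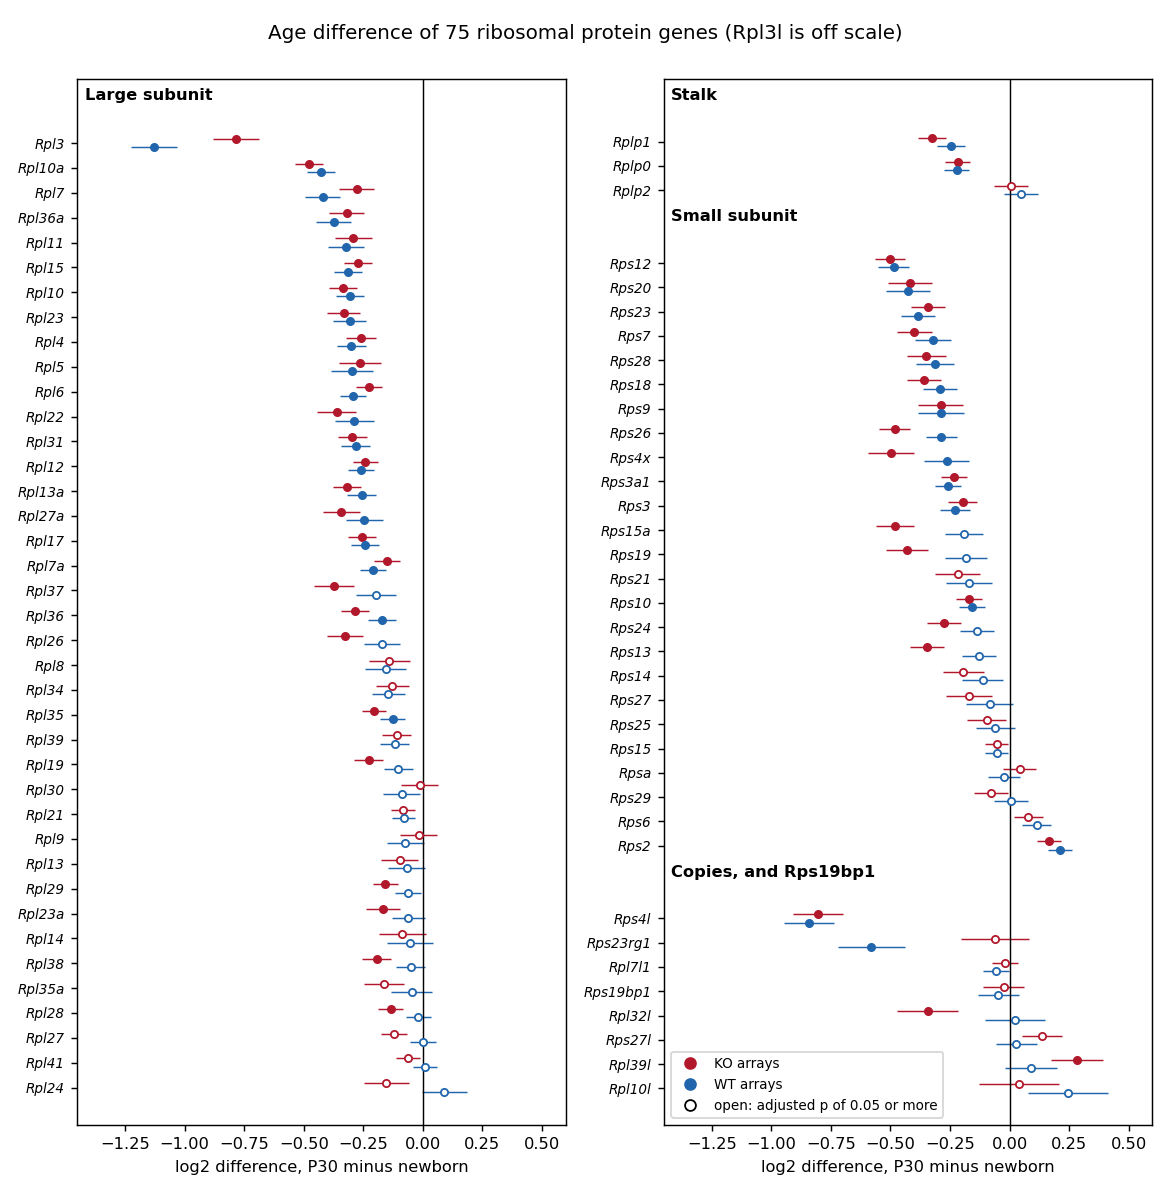
Log2 difference between P30 and newborn hearts (x axis) for 75 members (y axis; Rpl3l is off the scale and left out), grouped by their place in the ribosome, with KO arrays in red above WT arrays in blue. Bars are standard errors (6 arrays a group) and open points did not pass the test. Most points lie left of 0, and Rpl3 (-0.79 in KO and -1.13 in WT hearts) and Rps4l (-0.80 and -0.84) lie farthest left.

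Among the 39 large-subunit proteins 27 fell in KO and 20 in WT hearts, and 0 rose in either. Rpl3, which lies close to the site where peptide bonds form, had the largest fall of these. Its log2 signal had a low, median and high of 10.57, 10.64 and 10.89 in P30 KO and 11.33, 11.43 and 11.59 in newborn KO hearts, and of 9.90, 10.29 and 10.69 in P30 WT and 11.19, 11.46 and 11.60 in newborn WT hearts. The ages did not overlap in either genotype. The fall was 0.79 on the log2 scale in KO hearts, or 1.72-fold (adjusted p = 2.73e-07), and 1.13 in WT hearts, or 2.19-fold (SE 0.097, adjusted p = 5.88e-10).

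Rpl10a, whose tagged form is widely used to pull ribosomes out of chosen cells, came next. It had a low, median and high of 10.94, 11.06 and 11.12 in P30 KO and 11.45, 11.52 and 11.62 in newborn KO hearts, and of 10.90, 11.03 and 11.21 in P30 WT and 11.33, 11.48 and 11.56 in newborn WT hearts. No array of one age reached those of the other. It fell by 0.48 on the log2 scale in KO (adjusted p = 1.87e-07) and by 0.43 in WT hearts (adjusted p = 8.33e-07). Rpl7, a protein of the outer face of the large subunit, fell by 0.28 in KO (adjusted p = 0.0028) and by 0.42 in WT hearts (adjusted p = 3.31e-05). Rpl5 and Rpl11, which outside the ribosome bind Mdm2 and so stabilize p53, fell together, by 0.26 and 0.29 in KO hearts (adjusted p = 0.0131 and 0.0026) and by 0.30 and 0.32 in WT hearts (adjusted p = 0.0066 and 0.0011). Under median centring the WT fall of Rpl5 had an adjusted p of 0.0582. Rpl13a, often used as a reference gene for quantitative PCR, had P30 arrays wholly below newborn arrays in both genotypes. It fell by 0.32 in KO (adjusted p = 9.27e-05) and by 0.26 in WT hearts (adjusted p = 8.57e-04). At the other end, Rpl24, Rpl41 and Rpl27 had WT differences of 0.091, 0.0077 and 0.00060 and did not pass there.

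Among the 25 small-subunit proteins 16 fell and 1 rose in KO, and 12 fell and 1 rose in WT hearts. Rps12 had the largest fall of these in both genotypes. Its log2 signal had a low, median and high of 9.12, 9.19 and 9.27 in P30 KO and 9.53, 9.66 and 9.86 in newborn KO hearts, and of 8.89, 9.12 and 9.24 in P30 WT and 9.54, 9.61 and 9.66 in newborn WT hearts. A gap separated the ages in each genotype. The fall was 0.50 on the log2 scale in KO (adjusted p = 5.13e-07) and 0.49 in WT hearts (adjusted p = 6.62e-07). Rps20, a protein of the head of the small subunit, fell by 0.42 in KO (adjusted p = 5.34e-04) and by 0.43 in WT hearts (adjusted p = 4.27e-04). Rps26, at the channel where mRNA leaves the subunit, fell by 0.48 in KO (adjusted p = 1.26e-06) and by 0.29 in WT hearts (adjusted p = 7.45e-04). Rps23, which helps to form the decoding centre, fell by 0.34 in KO (adjusted p = 2.51e-04) and by 0.38 in WT hearts (adjusted p = 6.19e-05).

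Some small-subunit genes passed in KO hearts alone. Rps19, mutated in Diamond-Blackfan anaemia in humans, had medians of 9.69 in P30 KO and 10.11 in newborn KO hearts and fell by 0.43 (adjusted p = 2.54e-04). In WT hearts its medians were 9.85 at P30 and 9.97 at birth, with overlapping arrays and a difference of -0.18 (adjusted p = 0.0965), which was -0.23 without newborn WT array 2 (adjusted p = 0.0342). Rps15a fell by 0.48 in KO (adjusted p = 1.66e-05), against a difference of -0.19 in WT hearts (adjusted p = 0.0508). In all, 12 members fell in KO without passing in WT hearts, and Rps23rg1 did the opposite. This was not shown to be a difference between the genotypes: in the test of that difference, for which 0.0106% of all genes passed, 0 of 76 members passed by limma, with adjusted p-values of 0.306 or more. At an unadjusted p under 0.05 the KO minus WT difference was higher at P30 for 2 members and lower for 3, against 10.9% and 2.04% of all genes.

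Rps6, the substrate of the S6 kinases below mTORC1, did not pass in either genotype. Its log2 signal had a low, median and high of 12.29, 12.42 and 12.47 in P30 KO and 12.24, 12.31 and 12.43 in newborn KO hearts, and of 12.30, 12.41 and 12.47 in P30 WT and 12.01, 12.32 and 12.44 in newborn WT hearts. The ages overlapped, with differences of 0.078 in KO (adjusted p = 0.268) and 0.11 in WT hearts (adjusted p = 0.134), and the scaling decided the sign and the call. After a new quantile normalization the differences of Rps6 were -0.087 in KO and -0.013 in WT hearts, while with arrays centred on their medians the WT difference was 0.18 and passed (adjusted p = 0.0256). Rpsa, also known as the laminin receptor, was near 0 too, at 0.042 in KO and -0.023 in WT hearts.

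Rps2, which lies where mRNA enters the small subunit, was the only small-subunit gene to rise. Its low, median and high were 12.37, 12.46 and 12.55 in P30 KO and 12.24, 12.28 and 12.41 in newborn KO hearts, and 12.37, 12.50 and 12.59 in P30 WT and 12.20, 12.26 and 12.35 in newborn WT hearts. The ages overlapped in KO and stood apart in WT hearts. The rise was 0.17 on the log2 scale in KO (adjusted p = 0.0076) and 0.21 in WT hearts (adjusted p = 0.0010). It depended on the scaling, with 0.0066 in KO (adjusted p = 0.916) and 0.099 in WT hearts (adjusted p = 0.0648) after a new quantile normalization.

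Of the 3 stalk genes, Rplp0 and Rplp1 fell and Rplp2 did not pass. Rplp0, the base of the stalk, had medians of 12.27 in P30 KO and 12.48 in newborn KO, and of 12.20 in P30 WT and 12.43 in newborn WT hearts. It fell by 0.22 in each genotype (adjusted p = 0.0013 in KO and 0.0011 in WT hearts), and after median centring the WT fall had an adjusted p of 0.0723. Rplp1, an acidic protein at the tip, fell by 0.33 in KO (adjusted p = 6.31e-05) and by 0.24 in WT hearts (adjusted p = 0.0013), and with the mean of its 3 probe sets in place of the brightest the WT value was -0.12 (adjusted p = 0.153). Its partner Rplp2 was read by 1 dim probe set, with a mean of 5.06, and differed by 0.0053 in KO and 0.046 in WT hearts, and after a new quantile normalization its WT difference was 0.21 and passed (adjusted p = 0.0309).

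Rpl3l moved against its parent gene Rpl3 and had by far the largest difference of the members. Its log2 signal on the 6 arrays was 9.08, 8.51, 9.15, 9.01, 8.73 and 9.03 in P30 KO and 4.55, 4.38, 4.16, 4.48, 4.81 and 4.11 in newborn KO hearts. It was 9.21, 8.60, 9.30, 9.36, 9.22 and 9.28 in P30 WT and 4.75, 4.60, 5.00, 4.42, 4.35 and 4.81 in newborn WT hearts. The lowest P30 array stood far above the highest newborn array in both genotypes. Rpl3l was read by 1 probe set. Its newborn signals, 4.11 to 5.00, lay near the array medians of 4.24 to 4.50, so the size of the rise rests on a dim newborn signal. The rise was 4.50 on the log2 scale in KO (22.7-fold, adjusted p = 6.69e-18) and 4.51 in WT hearts (22.8-fold, SE 0.14, adjusted p = 5.63e-18). Only 2 of the 18819 genes rose more, in KO and in WT hearts alike. Over the 24 arrays, of which the ages form 2 clusters, the genes most like Rpl3l by Pearson correlation were Trim72, Agtpbp1, Me1, Ogdhl and Itga7, with coefficients of 0.996 to 0.998. Trim72 is a membrane repair protein of striated muscle, Me1 is malic enzyme and Itga7 is a laminin-binding integrin of muscle.

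**Figure D2:**
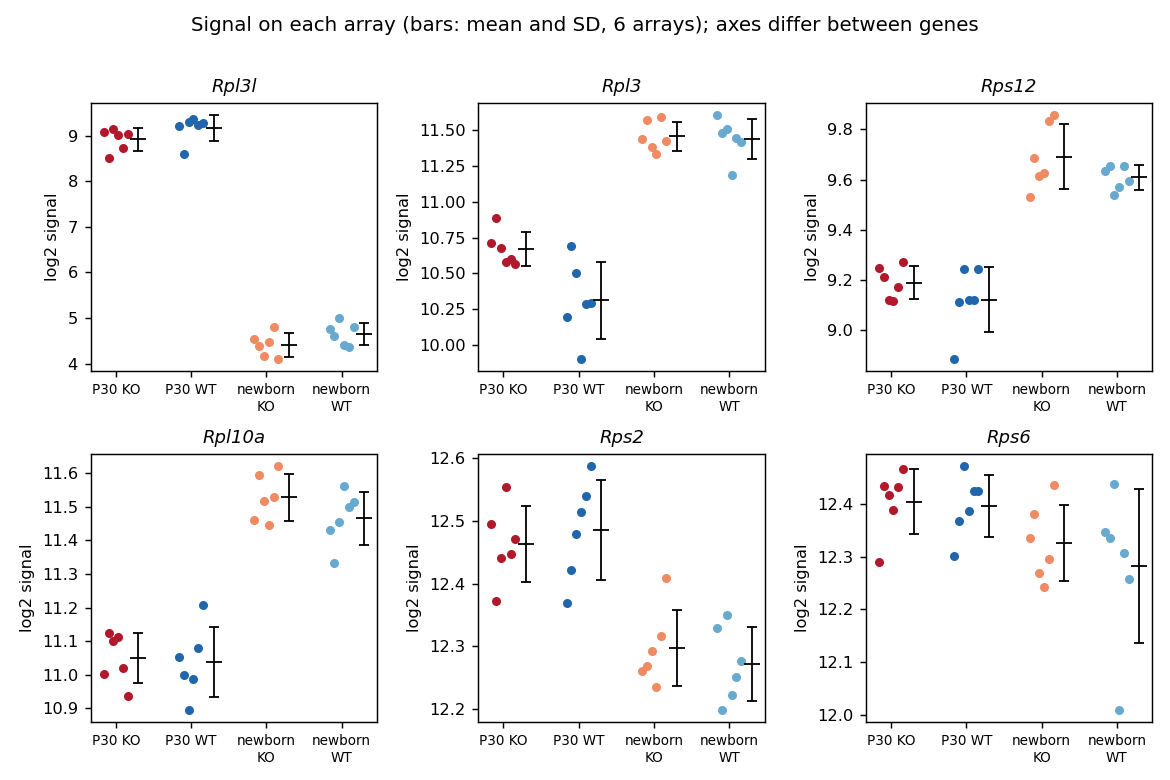
Log2 signal (y axis) on each of the 24 arrays for Rpl3l, Rpl3, Rps12, Rpl10a, Rps2 and Rps6, by group (x axis), with the mean and SD of 6 arrays beside the points. Rpl3l lies above 8 in all P30 and at or below 5.00 in all newborn hearts, Rpl3 runs the other way, and Rps6 overlaps between the ages.

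Rps2 and Rpl3l, the members that rose in both genotypes, are near neighbours on chromosome 17. Between them RefSeq places 1 protein-coding gene, Ndufb10, a subunit of respiratory complex I, together with Snhg9, Snora78 and Snora64, which were not analysed here. Ndufb10 also rose, with group means of 9.06 in P30 KO and 8.16 in newborn KO, and of 9.08 in P30 WT and 8.27 in newborn WT hearts. The difference was 0.90 in KO (adjusted p = 1.65e-07) and 0.81 in WT hearts (adjusted p = 6.39e-07). That the 3 genes adjoin was noticed after their values were seen.

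Runs of C and T bases near the annotated start, the kind of sequence from which the TOP class takes its name, were present in some of these genes and not in others. The stretches below show Rpl3l and Rps2, which rose, Rps12, Rpl10a and Rps23, which fell, and Rps6, which did not pass, as RefSeq annotates them on GRCm38.p6. Each runs from 40 bases before to 20 bases from the annotated start, and capitals mark a C followed by 6 or more C or T bases. Rpl3l lies at chr17:24727786-24727845 and chr17:24732645-24732704 on the plus strand for its 2 annotated starts, Rps2 at chr17:24720023-24720082 on the plus strand, Rps12 at chr10:23787190-23787249 on the minus strand, Rpl10a at chr17:28328431-28328490 and chr17:28328525-28328584 on the plus strand for its 2 annotated starts, Rps23 at chr13:90923082-90923141 on the plus strand and Rps6 at chr4:86857348-86857407 on the minus strand.
Rpl3l, first start: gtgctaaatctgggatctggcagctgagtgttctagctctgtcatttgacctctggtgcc
Rpl3l, second start: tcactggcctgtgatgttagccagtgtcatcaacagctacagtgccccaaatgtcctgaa
Rps2: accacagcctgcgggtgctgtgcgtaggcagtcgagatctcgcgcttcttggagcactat
Rps12: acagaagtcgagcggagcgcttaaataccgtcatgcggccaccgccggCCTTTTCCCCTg
Rpl10a, first start: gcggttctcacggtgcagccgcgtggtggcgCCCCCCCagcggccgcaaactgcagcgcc
Rpl10a, second start: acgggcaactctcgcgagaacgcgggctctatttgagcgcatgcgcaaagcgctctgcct
Rps23: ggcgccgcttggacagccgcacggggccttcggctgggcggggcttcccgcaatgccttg
Rps6: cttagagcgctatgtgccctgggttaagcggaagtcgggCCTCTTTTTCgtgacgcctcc

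Such a run was present within 20 bases of the start in 36 of 74 member promoters (48.6%), from 62 members, against 18.7% of 32851 promoters. It is 11 bases long in Rps12, where it begins at base 9 counted from 1 at the annotated start, 10 bases long in Rps6, where it begins 1 base before the start, and 7 bases long at the first start of Rpl10a, where it begins 9 bases before. Rpl3l, Rps2, Rps23 and the second start of Rpl10a hold no such letters in the window. Rps2 and Rps23 hold shorter runs just after the start, cttctt and cttccc, which were not counted. None of these runs begins exactly at the annotated first base, and the true first base of the mRNA was not measured here. Presence of a run as defined here did not go with a larger fall. Shorter runs count as none and runs before the start count, so the split is not one of TOP mRNAs against others. The 31 small-subunit, large-subunit and stalk genes with it had a median age difference of -0.22 in KO and -0.16 in WT hearts, and 20 and 14 of them fell. The 23 genes without it had medians of -0.29 in KO and -0.26 in WT hearts, and 17 and 14 of them fell. From 250 bases before to 50 bases after each start, and on both strands, CGGAAG, the core that Ets factors bind, was found in 59.5% of member promoters and 16.9% of all promoters. AAGATGGC, the core that Yy1 binds, was found in 10.8% and 2.75%, CACGTG, an E-box, in 10.8% and 7.15%, and TATAAA in 9.46% and 13.6%. These are matches of letters and say nothing of binding.

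The other copies of ribosomal protein genes did not share the pattern of Rpl3l. Rps4l, a transcribed pseudogene in RefSeq named after Rps4x, had a low, median and high of 7.80, 7.96 and 8.21 in P30 KO and 8.53, 8.81 and 8.91 in newborn KO hearts, and of 7.67, 7.85 and 8.20 in P30 WT and 8.34, 8.83 and 9.01 in newborn WT hearts. It fell by 0.80 in KO (1.75-fold, adjusted p = 6.68e-07) and by 0.84 in WT hearts (1.79-fold, adjusted p = 2.72e-07). Its X-linked namesake Rps4x fell by 0.50 in KO (adjusted p = 1.07e-04) and by 0.26 in WT hearts (adjusted p = 0.0246), and the WT call was lost without newborn WT array 1 (-0.21, adjusted p = 0.0766) and without 4 other WT arrays, under median centring and with the mean of its probe sets.

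Rps23rg1, a retroposed copy of Rps23 that was dim on these arrays, fell in WT hearts, by 0.58 (adjusted p = 0.0013), and differed by -0.061 in KO hearts (adjusted p = 0.719). Rpl39l, a copy of Rpl39 from testis, rose by 0.28 in KO hearts (adjusted p = 0.0279), at a mean log2 signal of 2.49 that was among the lowest on the array. That call was lost without newborn KO array 1 or 4 or without P30 KO array 3 or 4 (adjusted p = 0.0693, 0.0697, 0.0907 and 0.0731). Over all 34 alternative settings for Rpl39l the call was lost in 9. The difference went down to 0.10 and the limma adjusted p up to 0.433. Rpl32l fell in KO hearts by 0.34 (adjusted p = 0.0233), and that call was lost without newborn KO array 6 or P30 KO array 1 or 5 (adjusted p = 0.0634, 0.0631 and 0.0635). Of its 35 alternative settings 6 lost the call, with a weakest difference of -0.23 and a limma adjusted p up to 0.150. Rpl7l1, Rps27l and Rpl10l did not pass in either genotype, and neither did Rps19bp1, which binds Rps19 and is no part of the ribosome. The parents Rpl39 and Rps27 did not pass in either genotype. After a new quantile normalization Rpl39 was lower by 0.26 on the log2 scale in KO (adjusted p = 1.21e-04) and by 0.21 in WT hearts (adjusted p = 8.03e-04), and without newborn WT array 4 it was lower by 0.17 in WT hearts (adjusted p = 0.0132). Without P30 KO array 3 Rps27 had a KO difference of -0.23 (adjusted p = 0.0489). Rpl10, needed for the subunits to join, fell by 0.34 in KO (adjusted p = 4.06e-05) and by 0.31 in WT hearts (adjusted p = 1.11e-04).

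Most probe sets of the members had lower signal at P30. Of the 377 probe sets, 326 were lower in P30 WT than in newborn WT hearts and 51 were higher, and 11 members had probe sets in both directions. All 5 probe sets of Rpl3 lay between -1.13 and -1.01 in WT hearts, all 9 of Rps12 between -0.49 and -0.31, and all 18 of Rps2 lay between 0.21 and 0.30. The probe sets of Rps6 ran from -0.034 to 0.11. Rpl21 had the most, 41, from -0.18 to -0.032. A further 60 probe sets that named a member and another gene were not used.

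**Figure D3:**
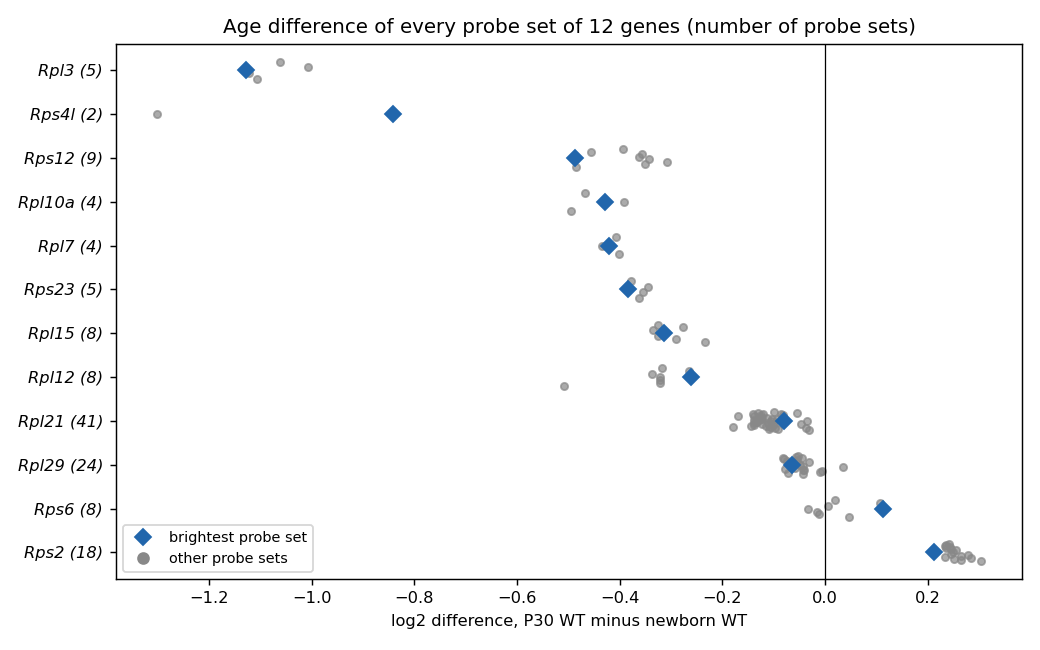
Log2 difference between P30 WT and newborn WT hearts (x axis) for every probe set of 12 members (y axis, number of probe sets in brackets), with the brightest probe set as a diamond. The 5 probe sets of Rpl3 lie between -1.13 and -1.01 and the 18 of Rps2 between 0.21 and 0.30, and those of Rps6 fall on both sides of 0.

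Ribosomal proteins of the mitochondrion went the other way. Of the 74 Mrpl and Mrps genes, 56 rose and 2 fell in KO hearts, and 56 rose and 2 fell in WT hearts, with a median difference of 0.43 in each. Among ribosomal proteins outside the naming rule, Fau, which is made as a fusion with a ubiquitin-like protein, fell by 0.34 in KO (adjusted p = 3.82e-05) and by 0.31 in WT hearts (adjusted p = 9.44e-05).

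Genes that build and run the cytosolic ribosome were mixed. Of 63 measured genes of ribosome assembly and rRNA processing, 25 fell and 7 rose in KO, and 25 fell and 8 rose in WT hearts. Npm1, a nucleolar chaperone, fell by 0.74 in KO (adjusted p = 1.35e-07) and by 0.67 in WT hearts (adjusted p = 4.75e-07). Eif6, which keeps the large subunit from joining too early, fell by 0.35 in KO (adjusted p = 8.48e-05) and by 0.57 in WT hearts (adjusted p = 1.05e-07), as did the small-subunit factors Riok1 and Imp4 in both genotypes. Of 15 measured genes of RNA polymerase I and its factors, 5 fell and 3 rose in KO, and 3 fell and 4 rose in WT hearts. Of 35 measured initiation factors, 17 fell and 7 rose in KO, and 14 fell and 6 rose in WT hearts. Pabpc1, the poly(A)-binding protein and itself encoded by a TOP mRNA, fell by 0.75 in KO (adjusted p = 3.43e-10) and by 0.68 in WT hearts (adjusted p = 1.34e-09), and Eif4a1, the helicase of initiation, fell by 0.52 in KO (adjusted p = 1.21e-07) and by 0.60 in WT hearts (adjusted p = 9.66e-09).

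Of 13 elongation factors, 5 rose and 5 fell in KO, and 6 rose and 4 fell in WT hearts. They held a second pair of genes that moved in opposite directions. Eef1a1, which delivers tRNA in most cells, fell by 0.84 in KO (adjusted p = 1.57e-08) and by 0.85 in WT hearts (adjusted p = 9.88e-09), whereas Eef1a2, its form in muscle and neurons, rose by 1.30 in KO (adjusted p = 3.49e-13) and by 1.40 in WT hearts (adjusted p = 7.48e-14). Eef2, which moves the ribosome along the mRNA, fell by 0.34 in KO (adjusted p = 1.82e-06) and by 0.33 in WT hearts (adjusted p = 2.04e-06). Of 21 measured regulators of TOP mRNAs and mTORC1, 6 fell and 6 rose in KO, and 7 fell and 8 rose in WT hearts. Myc, which drives transcription of ribosomal protein genes, fell by 2.48 in KO (adjusted p = 7.63e-10) and by 2.03 in WT hearts (adjusted p = 1.93e-08), Tia1, a repressor that binds TOP mRNAs, fell by 0.70 in KO (adjusted p = 8.87e-06) and by 0.85 in WT hearts (adjusted p = 4.87e-07), and Eif4ebp1, an inhibitor of initiation that mTORC1 phosphorylates, fell by 0.52 in KO (adjusted p = 8.56e-08) and by 0.61 in WT hearts (adjusted p = 5.71e-09). Of 14 measured genes of ribosome quality control, 4 fell and 1 rose in KO, and 4 fell and 4 rose in WT hearts. Of 9 measured genes of the p53 response to free ribosomal proteins, 4 fell and 3 rose in KO, and 4 fell and 1 rose in WT hearts. Of 5 measured TOP transcripts and snoRNA hosts that encode no ribosomal protein, 1 fell in KO and 2 fell and 1 rose in WT hearts, and Snhg5 was the one that fell in both.

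**Figure D4:**
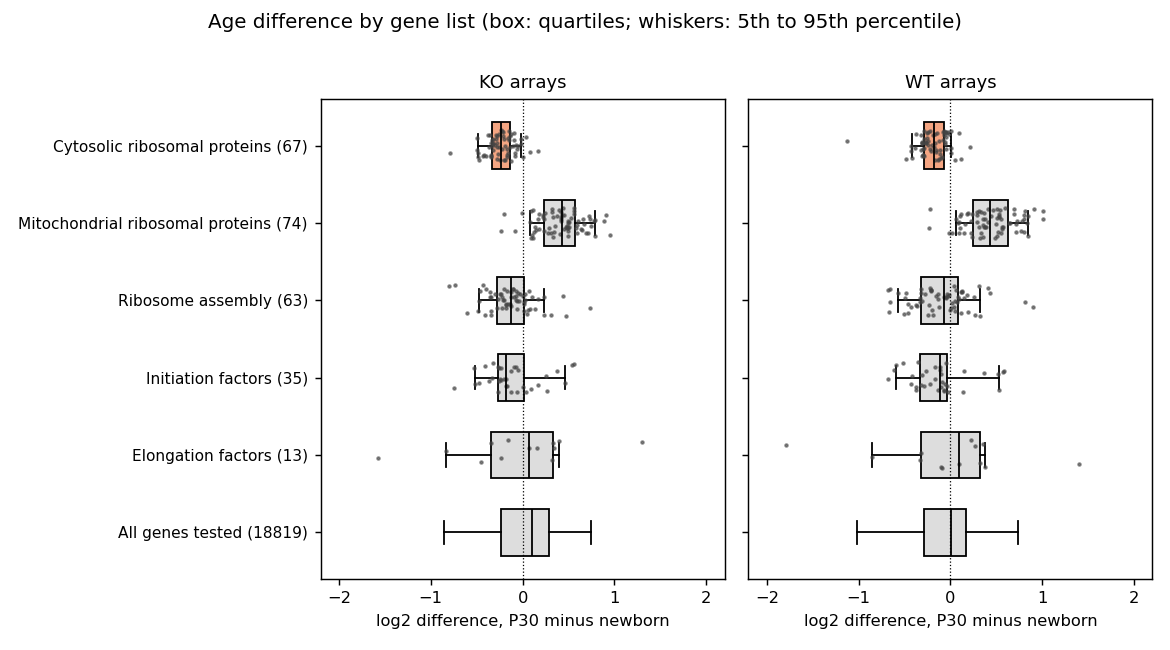
Log2 difference between P30 and newborn hearts (x axis) for 67 structural proteins of the cytosolic ribosome, 74 of the mitochondrial ribosome, 3 related lists and all 18819 genes, in KO arrays on the left and WT arrays on the right. Boxes are quartiles, lines in them medians, whiskers the 5th and 95th percentiles and dots single genes. The box of the cytosolic ribosome lies below 0 and that of the mitochondrial ribosome above 0.

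No member passed the test between the genotypes at P30. There 0 of 76 passed, against 0.67% of all genes higher and 0.351% lower, and at an unadjusted p under 0.05 Rpl3 and Rpl7 were higher in KO and Rps4x lower, against 10.4% of all genes higher and 4.57% lower. The difference was above 0 in 41 of 76 members, against 60.2% of all genes, and its median was 0.010 over the members and 0.033 over all genes. Rpl3 had the largest difference, 0.36 (SE 0.097, adjusted p = 0.0698), and it fell short of the threshold. Its log2 signal was 10.71, 10.89, 10.68, 10.58, 10.60 and 10.57 on the P30 KO arrays, against 10.20, 10.69, 10.50, 9.90, 10.29 and 10.29 on the P30 WT arrays. Of the WT arrays, 1 lay among the KO values, and it was array 2, which had the highest atrial marker mean of that group, 10.6, where the other WT arrays had 6.14 to 9.36 and the KO arrays 7.17 to 10.6. Its fibroblast and smooth muscle marker means, 9.28 and 9.22, were also the highest of the P30 WT arrays. Without that array the difference was 0.44 (adjusted p = 0.0089), without P30 KO array 3 it was 0.36 (adjusted p = 0.0492), and with the atrial marker mean as a covariate over the 12 P30 arrays it was 0.23 (adjusted p = 0.678).

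The other members at the ends of the P30 comparison had smaller differences. Rpl7, Rpl9, Rpl34 and Rpl39l had differences of 0.16, 0.14, 0.11 and 0.11, and Rpl32l, Rpl3l, Rps4x, Rps15a and Rps26 of -0.26, -0.24, -0.21, -0.13 and -0.12. The smallest adjusted p among these 9 was 0.304, for Rps4x. The value for Rpl3l was 0.0069 with the atrial marker mean as a covariate.

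At birth 0 members passed by limma, and 0% of all genes did, while 1 member was higher and 1 lower at an unadjusted p under 0.05, against 1.45% and 7.62% of all genes. Newborn KO hearts had a median difference of 0.041 from newborn WT hearts over the members, and of -0.049 over all genes. In 61 of 76 members (80.3%) the difference was above 0, against 31.2% of all genes, and single members could not be told from 0. Averaged over the members, newborn KO arrays 5 and 6 had 10.05 and 10.06. The remaining newborn KO arrays had 9.91 to 9.94, within the newborn WT range of 9.86 to 9.98. KO arrays 5 and 6 also had the lowest proliferation marker means of the newborn arrays, 6.36 and 6.10, whose part was not tested. The highest members were Rps27, Rps15a, Rpl26, Rpl10l and Rps19, at 0.17, 0.16, 0.15, 0.15 and 0.14. The lowest were Rps23rg1, Rpl3l, Rpl39l, Rps19bp1 and Rps27l, at -0.50, -0.24, -0.087, -0.085 and -0.068. Rps23rg1 had a low, median and high of 4.01, 4.27 and 5.01 in newborn KO and 4.68, 4.91 and 5.10 in newborn WT hearts, which overlapped through KO array 3 (adjusted p = 0.342). It was lower in KO hearts by 0.59 when the newborn arrays numbered 4 were left out (adjusted p = 0.0393), a setting in which 0.622% of all genes were higher and 1.94% lower.

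**Figure D5:**
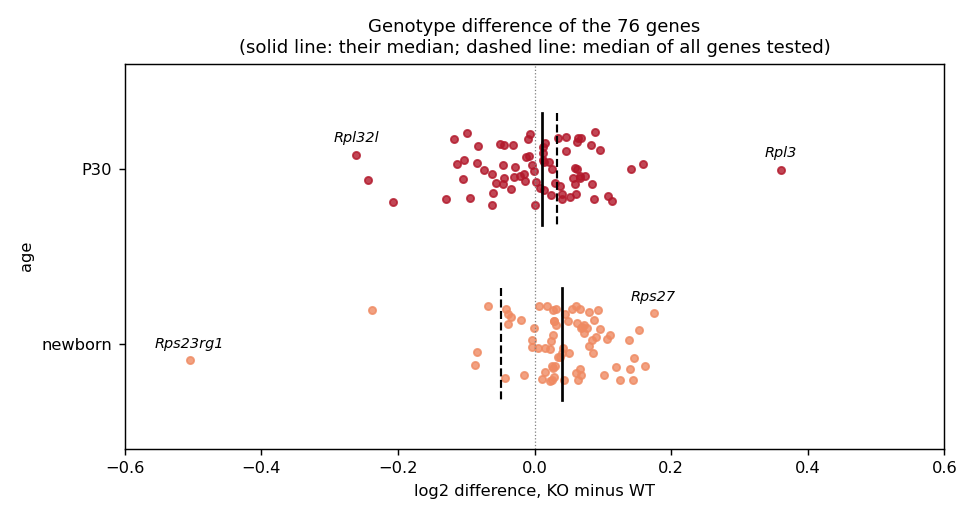
Log2 difference between KO and WT hearts (x axis) for the 76 members at P30 and at birth (y axis). The solid line is the median of the members, 0.010 at P30 and 0.041 at birth, and the dashed line the median of all genes, 0.033 at P30 and -0.049 at birth, and no point passed the test.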

How the data were processed

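RNA from ventricle tissue of 24 mouse hearts was hybridized to whole-transcript Affymetrix arrays. The values deposited by the authors are log2 signals from RMA, a procedure meant to remove background, give all arrays 1 distribution and pool the probes of a set. The medians of the deposited arrays still differed, from 4.24 to 4.50, and some calls changed with a further scaling. Per the submitters' processing notes, R 2.15 was used with oligo 1.22 and limma 3.14. Probe sets were named from the platform annotation, and the brightest probe set with 1 symbol stood for a gene. All 76 members were matched to RefSeq by Entrez identifier. Groups came from the labels. A linear model with a mean for each group was fitted here (limma 3.58.1, R 4.3.3), its variances were moderated, and p-values were adjusted by Benjamini-Hochberg in 5 comparisons (age in KO and in WT, genotype at P30 and at birth, and the difference of the genotype effects). With 6 arrays a group the number of arrays limits the precision. No scan date or batch was given in the sources used here. The labels do not pair hearts, and p-values measure the spread between these samples.

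The members and gene lists were chosen with earlier results of these data known. Members named were the stalk genes and Rpsa, copies and their parents, the 5 largest called changes each way by age, the 5 highest and lowest by genotype, and Rps6, Rps19, Rpl5, Rpl11 and Rpl13a. Genes of related lists were taken from those with the largest limma statistic in WT hearts. Ndufb10, Rpl24, Rpl41, Rpl27, Rpl21, Myl2, Tnnt2 and Actc1 were named after values were seen. The procedure was tested on simulated data.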

Additional observations from a re-analysis of the deposited data

Results flagged for a closer look

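In 14 of the 304 sets of 6 arrays (76 members in 4 groups), or 4.61%, 1 array stood apart from the other 5 by Dixon's test, and chance gives about 1 in 20. Of these, 9 concerned members named in the report. Rpl3l was 8.60 on P30 WT array 2, against 9.21 to 9.36 on the other P30 WT arrays, and that array also had the highest atrial marker mean of its group, 10.6. Rps12 was 8.89 on P30 WT array 1, against 9.11 to 9.24 on the others. Rps19 was 9.42 on the same array, against 9.76 to 9.95. Rps15a was 9.12 on P30 KO array 3, against 8.90 to 8.98. Rps19bp1 was 7.02 on P30 KO array 5, against 7.33 to 7.45. Rpl32l was 6.89 on newborn KO array 6, against 6.41 to 6.58, and that array was the high one in 3 of the 14 sets. Rps27l was 9.80 on newborn KO array 5, against 9.51 to 9.61. Rpl7 was 9.77 on newborn WT array 4, one of the 2 arrays whose score went against their labels, against 10.07 to 10.15. Rps23 was 10.52 on newborn WT array 3, against 10.62 to 10.67.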

How the results depend on the processing

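Counts by age stayed within 1.5 times under most settings. Leaving out 1 array at a time, 43 to 50 members fell and 2 to 3 rose in KO hearts, and 34 to 40 fell and 2 rose in WT hearts. With all arrays, 1 member rose in KO hearts after a new quantile normalization, where 23.7% of all genes rose. At a fold of at least 1.5, 2 members fell and 1 rose in KO hearts, where 9.58% of all genes fell and 7.61% rose. At that fold 2 members fell and 1 rose in WT hearts, where 12.1% of all genes fell and 6.85% rose. Between the genotypes at P30, 1 member, Rpl3, was called higher with a variance trend and robust moderation (adjusted p = 0.0481), with the replicate block (adjusted p = 0.0267) and, over the fits that left out 1 array, in 0 to 1. At birth 1 member, Rps23rg1, was called lower without the newborn arrays numbered 4, where 1.94% of all genes were lower. Over all genes replicate numbers did not pair the hearts: deviations of same-numbered arrays correlated above 0.1 in 2 of 6 pairs for age in KO, 1 for age in WT, 3 for genotype at P30 and 2 at birth. Some members still differed between arrays 1 to 3 and 4 to 6. Rps4x had 10.83 to 10.98 and 10.47 to 10.66 in newborn WT, and 10.82 to 10.86 and 10.55 to 10.75 in newborn KO hearts. In P30 KO hearts Rps4x had 10.39 to 10.44 and 9.99 to 10.21. In P30 WT hearts its 2 sets of arrays overlapped. Rps20 had 11.62 to 11.79 and 11.33 to 11.42 in newborn WT, and 11.19 to 11.32 and 10.91 to 11.06 in P30 WT hearts. In P30 KO hearts Rps20 had 11.19 to 11.32 and 10.86 to 10.99, and in newborn KO hearts its 2 sets overlapped. The paper states that both sexes were used, sex and batch were not given for each sample, and their part was not tested. With the replicate block 49 members fell and 3 rose in KO, and 38 fell and 2 rose in WT hearts. Some differences near 0 that had not passed changed sign, and the cause was not tested. By age in WT hearts Rpsa was 0.044 with median centring, 0.015 with new quantile normalization and 0.018 with the mean of its probe sets, Rpl7l1 was 0.012 with median centring, and Rps6 was -0.013 with new quantile normalization, against 0.18 with median centring, where it passed (adjusted p = 0.0256). In KO hearts Rpsa was -0.040 with the mean of its probe sets, Rps6 -0.087 and Rpl10l -0.080 with new quantile normalization, and Rplp2 -0.0055 with median centring, -0.028 with array weights and -0.026 without the newborn arrays numbered 4. Leaving out 1 array at a time, Rplp2 ranged from -0.026 to 0.044, Rpl10l from -0.088 to 0.145 and Rps23rg1 from -0.135 to 0.065 in KO hearts, and Rpl32l from -0.098 to 0.071 and Rps27l from -0.012 to 0.094 in WT hearts. With the atrial marker mean as a covariate, chosen after seeing the data, the P30 genotype difference of Rpl3l was 0.0069. Rpl39l and Rpl10l lay near the low end of the signal, and Rps23rg1 and Rplp2 were dimmer than most members, which limits their precision.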
